A study of Mus musculus with 8 samples.

Results

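Glycogen synthesis and breakdown genes are described here in Lewis lung carcinoma (LLC) cells, a mouse lung cancer line. The set holds 9 genes, Gys1, Gbe1, Pgm1, Pgm2, Ugp2, Pygl, Pygb, Ppp1r3c and Ppp1r3b, of 53700 genes in the count table. They were listed by name for their place in glycogen metabolism, with earlier results of these data known. All 9 were found in the table, and 7 had enough reads to be tested. RNA was sequenced from wild-type (WT) cells and from cells with a knockout of factor inhibiting HIF (FIH-KO), each cultured for 16 hours in normoxia (21% oxygen) or hypoxia (1% oxygen), giving 4 groups of 2 libraries. The FIH-KO cells carry a CRISPR/Cas9 edit in Hif1an, the gene that encodes FIH, and were grown up as selected clones after dilution to single cells. The sources do not say whether the 2 libraries of a group came from separate cultures, so the p values below measure the spread between these libraries, which may be technical.

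Total counts per library ran from 14519731 to 18177016, and the 10 most abundant genes took 4.91% to 5.96% of them. Levels are given as counts per 1000000 (CPM), scaled by edgeR's trimmed mean of M values (TMM), with factors between 0.983 and 1.02. A count of 0 in these libraries allows a level of up to 0.168 to 0.205 CPM, the level of 3 counts, and such limits cover counting error only. edgeR's quasi-likelihood test was run on 13933 genes, and a gene was called higher or lower where its p, adjusted over all of them, was under 0.05.

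Glycogen is a branched polymer of glucose that cells build as a store and break down again to glucose phosphates. Phosphoglucomutase converts glucose 6-phosphate to glucose 1-phosphate, UDP-glucose pyrophosphorylase turns that into UDP-glucose, glycogen synthase lengthens the chains, branching enzyme adds the branch points, and glycogen phosphorylase releases glucose 1-phosphate again. Targeting subunits bring protein phosphatase 1 to the particle, where it activates the synthase and inactivates the phosphorylase. Several of these genes are known to respond to the hypoxia-inducible factors (HIF) at low oxygen, and FIH is an asparaginyl hydroxylase that dampens the transcriptional activity of HIF.

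The labels were first checked against the targeted gene. Hif1an was at 84.6 and 82.3 CPM in WT normoxia, 34.8 and 37.7 in FIH-KO normoxia, 90.2 and 84 in WT hypoxia, and 45.5 and 51 in FIH-KO hypoxia. All 4 FIH-KO libraries lay below all 4 WT libraries. Hif1an fell by 1.20 ± 0.116 (SE) on the log2 scale in FIH-KO cells in normoxia (edgeR adjusted p = 3.1e-05) and by 0.85 ± 0.115 in hypoxia (edgeR adjusted p = 0.00031). An edit of this kind can leave part of the mRNA in place, so these levels check the labels and do not measure FIH protein.

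The marker lists were as follows. The 4 mesenchymal markers summed to between 4440 and 11100 CPM per library, nearly all from Vim and Fn1. In FIH-KO hypoxia replicate 1 Fn1 (5530 CPM) was above Vim (5440 CPM). The 6 epithelial markers summed to between 226 and 538 CPM, nearly all from Krt8 and Krt18, while Epcam had no read in any of the 8 libraries and Cdh1 had at most 1. The alveolar type 2 markers stayed between 0 and 0.616 CPM, with Sftpc and Sftpa1 at 0 in every library and Sftpb at no more than 2 reads. Fibroblast markers summed to between 9.12 and 29 CPM, mostly Pdgfra, and leukocyte markers to between 2.96 and 10.3 CPM, with Cd3e at 0 and Ptprc at no more than 3 reads. Liver and muscle markers (0.179 to 0.687 CPM), mostly Acta1, were near the counting limit, with Alb and Myh4 at 0 and Ttr, Ckm and Myh1 at no more than 3 reads. Endothelial markers summed to between 0.179 and 2.41 CPM, mostly from Cdh5 in hypoxia, with Kdr at no more than 3 reads. All 9 hypoxia reference genes (Vegfa, Bnip3, Egln1, Egln3, Slc2a1, Hk2, Pgk1, Ldha and Pdk1) were higher in hypoxia in both genotypes, beside 16.9% higher over all tested genes in WT cells and 8.84% in FIH-KO cells. Ldha in WT cells (log2 fold change 0.63) was not called without WT normoxia replicate 2 (0.46) or WT hypoxia replicate 1 (0.497).

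The enzymes that make the glycogen precursor come first. Pgm1, the main phosphoglucomutase, was at 60.2 and 47.2 CPM in WT normoxia, 68.5 and 51.2 in FIH-KO normoxia, 266 and 211 in WT hypoxia, and 378 and 257 in FIH-KO hypoxia. Every hypoxia library lay far above every normoxia library, while the genotypes overlapped at each oxygen level. Hypoxia raised Pgm1 4.44-fold in WT cells (log2 fold change 2.15 ± 0.206, edgeR adjusted p = 2.7e-05) and 5.31-fold in FIH-KO cells (2.41 ± 0.207, edgeR adjusted p = 1.9e-05). The FIH-KO to WT difference was not called in normoxia (log2 fold change 0.16 ± 0.203, edgeR adjusted p = 0.6) or in hypoxia (0.41 ± 0.195, edgeR adjusted p = 0.13), although the latter was called with no filter beyond 1 read (edgeR adjusted p = 0.0041), with the replicate block (edgeR adjusted p = 0.015) and without FIH-KO hypoxia replicate 2 (edgeR adjusted p = 0.02), in an adjusted p range of 0.0041 to 0.59 over the alternatives. As these are bulk RNA levels, a change in the number of expressing cells and a change in RNA per cell cannot be told apart, for Pgm1 and for the genes that follow.

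Pgm2, a related enzyme that prefers pentose phosphates, did not follow Pgm1. It was at 43.6 and 43.8 CPM in WT normoxia, 41.2 and 40.9 in FIH-KO normoxia, 34.1 and 42 in WT hypoxia, and 31.9 and 29.4 in FIH-KO hypoxia. The hypoxia libraries were the lower ones in each genotype, and none of the 4 comparisons passed the threshold. The nearest was hypoxia against normoxia in FIH-KO cells (log2 fold change -0.42 ± 0.135, edgeR adjusted p = 0.051), which was called without WT hypoxia replicate 2 (edgeR adjusted p = 0.048). The symbols Pgm1 and Pgm2 were exchanged between mouse annotation releases. In these data Pgm1 is ENSMUSG00000025791.19 on chromosome 4 and Pgm2 is ENSMUSG00000029171.13 on chromosome 5.

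Ugp2, which makes UDP-glucose, was at 45.9 and 45.8 CPM in WT normoxia and 33.6 and 37.8 in WT hypoxia. In FIH-KO cells it was at 40.8 and 46 CPM in normoxia and 49 and 48.9 in hypoxia. Both WT hypoxia libraries were thus the lowest of the 8, and both FIH-KO hypoxia libraries the highest. Ugp2 fell in WT hypoxia (log2 fold change -0.36 ± 0.124, edgeR adjusted p = 0.042), and in FIH-KO cells the change was not called (0.17 ± 0.123, edgeR adjusted p = 0.37). FIH-KO over WT was called in hypoxia (0.46 ± 0.124, edgeR adjusted p = 0.017) and not in normoxia (-0.08 ± 0.123, edgeR adjusted p = 0.67). The fall in WT cells lost its call without any 1 of the 4 WT libraries (edgeR adjusted p 0.064 to 0.18) with DESeq2 (adjusted p = 0.052) and with no filter beyond 1 read (edgeR adjusted p = 0.076), and the rise over WT in hypoxia lost it without WT hypoxia replicate 1 (edgeR adjusted p = 0.1).

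Gys1 is the glycogen synthase used outside the liver. It was at 59.5 and 57.6 CPM in WT normoxia, 79.2 and 76.3 in FIH-KO normoxia, 328 and 275 in WT hypoxia, and 377 and 278 in FIH-KO hypoxia. The 4 hypoxia libraries stood well above the 4 normoxia libraries, and the genotypes did not overlap in normoxia but did in hypoxia. Gys1 rose 5.15-fold in hypoxia in WT cells (log2 fold change 2.37 ± 0.151, edgeR adjusted p = 2.3e-06) and 4.21-fold in FIH-KO cells (2.07 ± 0.149, edgeR adjusted p = 4.3e-06). FIH-KO over WT missed the threshold in normoxia (0.41 ± 0.147, edgeR adjusted p = 0.056) and in hypoxia (0.12 ± 0.142, edgeR adjusted p = 0.58). The normoxia difference was called with DESeq2 (adjusted p = 0.04), with no filter beyond 1 read (edgeR adjusted p = 0.0096), with only the 4 normoxia libraries (edgeR adjusted p = 0.012), with the replicate block (edgeR adjusted p = 0.026) and without FIH-KO hypoxia replicate 1 or 2 (edgeR adjusted p = 0.018 and 0.013), and its adjusted p ran from 0.0096 to 0.25 over the alternatives tried.

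Gbe1, the branching enzyme, was the only member called in all 4 pairwise comparisons. It was at 44.7 and 36.4 CPM in WT normoxia, 115 and 79.6 in FIH-KO normoxia, 100 and 85.7 in WT hypoxia, and 297 and 174 in FIH-KO hypoxia. The WT normoxia libraries were the lowest and the FIH-KO hypoxia libraries the highest, and the other 4 libraries overlapped between them. Hypoxia raised Gbe1 2.3-fold in WT cells (log2 fold change 1.20 ± 0.235, edgeR adjusted p = 0.0025) and 2.42-fold in FIH-KO cells (1.28 ± 0.228, edgeR adjusted p = 0.0031). FIH-KO cells held 2.4 times the WT level in normoxia (1.26 ± 0.234, edgeR adjusted p = 0.0021) and 2.53 times in hypoxia (1.34 ± 0.228, edgeR adjusted p = 0.0013). All 4 calls held under every alternative tried, with adjusted p of at most 0.041.

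**Figure D1:**
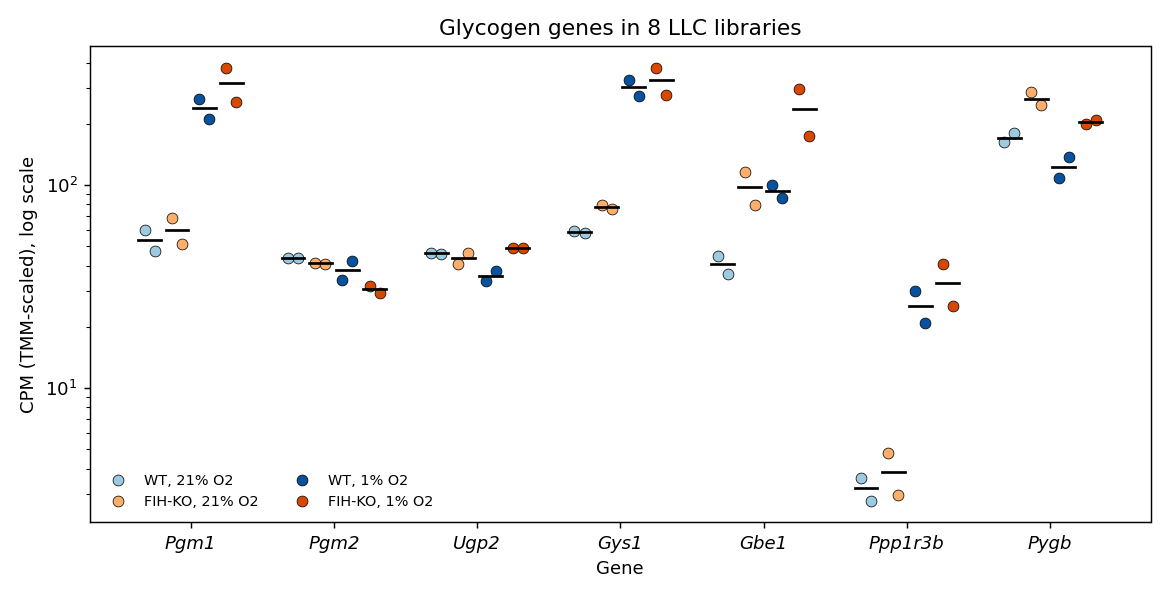
Level of each tested glycogen gene in the 8 LLC libraries, in TMM-scaled CPM on a log axis; points are libraries, bars are group means (n = 2). Pgm1, Gys1 and Ppp1r3b separate by oxygen. Gbe1 and Pygb separate by oxygen within each genotype and by genotype at each oxygen level, Gbe1 from 36.4 CPM in WT normoxia to 297 CPM in FIH-KO hypoxia.

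Among the targeting subunits of protein phosphatase 1, Ppp1r3b was the member with the largest fold change in hypoxia among the 7 tested. It was at 3.6 and 2.78 CPM in WT normoxia, 4.76 and 2.97 in FIH-KO normoxia, 29.9 and 20.9 in WT hypoxia, and 40.5 and 25.3 in FIH-KO hypoxia. Normoxia and hypoxia libraries did not overlap, and the genotypes overlapped at each oxygen level. The rise was 7.98-fold in WT cells (log2 fold change 2.996 ± 0.304, edgeR adjusted p = 3.7e-05) and 8.54-fold in FIH-KO cells (3.09 ± 0.295, edgeR adjusted p = 4.7e-05). FIH-KO over WT was not called in normoxia (0.28 ± 0.338, edgeR adjusted p = 0.58) or hypoxia (0.37 ± 0.254, edgeR adjusted p = 0.3).

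Ppp1r3c, a targeting subunit known from muscle, liver and fat, had 10 and 2 reads in the WT hypoxia libraries and no read in the other 6. It was below the filter on low counts and was not tested. For the ratio of pooled counts scaled to depth, the 95% exact interval for counting error began at 2.77 for WT hypoxia over WT normoxia and at 2.68 for WT hypoxia over FIH-KO hypoxia. Of the 12 reads, 10 came from 1 library. Such ratios could be given only for WT hypoxia, the only group with reads, so these bounds are a description and not a test.

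Breakdown was represented by 1 detected member. Pygb, the brain isoform of glycogen phosphorylase, was at 162 and 179 CPM in WT normoxia, 285 and 247 in FIH-KO normoxia, 108 and 137 in WT hypoxia, and 200 and 208 in FIH-KO hypoxia. The FIH-KO libraries were above the WT libraries at each oxygen level, and hypoxia libraries below normoxia libraries in each genotype, with no overlap in any of these comparisons. FIH-KO cells held more Pygb in normoxia, 1.56-fold (log2 fold change 0.64 ± 0.13, edgeR adjusted p = 0.0036), and in hypoxia, 1.67-fold (0.74 ± 0.131, edgeR adjusted p = 0.0016). It fell in WT hypoxia (-0.48 ± 0.131, edgeR adjusted p = 0.015), and the change in FIH-KO cells was not called (-0.38 ± 0.13, edgeR adjusted p = 0.064), although it was with no filter beyond 1 read (edgeR adjusted p = 0.032). The fall in WT cells lost its call without WT normoxia replicate 2 (edgeR adjusted p = 0.1) or WT hypoxia replicate 1 (edgeR adjusted p = 0.12), and the normoxia difference lost it without WT normoxia replicate 1 (edgeR adjusted p = 0.07). Pygl, the liver isoform, had 0 reads in all 8 libraries, so no level above the limit given for a count of 0 was detectable.

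Counted over the members, WT hypoxia against WT normoxia gave 4 higher (Gys1, Gbe1, Pgm1 and Ppp1r3b) and 2 lower (Ugp2 and Pygb) of the 7 tested, beside 16.9% higher and 15.5% lower over all tested genes. In FIH-KO cells the same comparison gave 4 higher, the same 4 genes by name, and 0 lower, beside 8.84% higher and 8% lower. The median log2 fold change of the 7 was 1.20 in WT cells and 1.28 in FIH-KO cells, and -0.00 and -0.03 over all tested genes. Each of the 7 had at least 47 reads in every library, so none was tested only because of the group where it was high. The members were chosen with earlier results of these data known, so their counts and medians beside those of all genes are a description only.

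Between genotypes, few members were called. In normoxia 2 of the 7 were higher (Gbe1 and Pygb) and 0 lower, beside 15.2% higher and 13% lower over all tested genes. The members' median was 0.28. In hypoxia 3 were higher (Gbe1, Pygb and Ugp2) and 0 lower, beside 14.1% higher and 13.9% lower, with a median of 0.41. For 7 genes, 0 lower is near the shares lower over all tested genes. The Pygb call in normoxia and the Ugp2 call were each lost without a single library, as given above. The 4 comparisons share libraries, so their counts are not independent of each other.

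**Figure D2:**
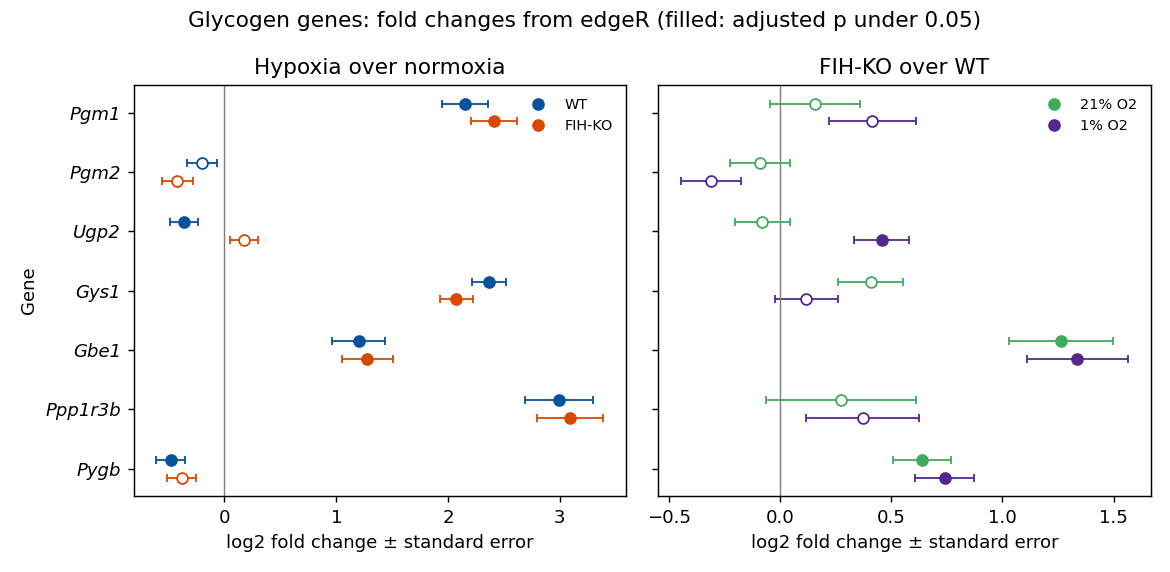
Log2 fold change and standard error of the 7 tested glycogen genes from edgeR, for hypoxia over normoxia in each genotype (left) and FIH-KO over WT at each oxygen level (right); filled points passed an adjusted p of 0.05. The rise of Pgm1, Gys1, Gbe1 and Ppp1r3b in hypoxia was called in both genotypes, and the genotype difference of Gbe1 and Pygb at both oxygen levels.

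Whether the oxygen response of these genes depended on FIH was tested as the difference between the FIH-KO effects in hypoxia and in normoxia. No gene passed in edgeR, 0% of all tested genes and 0 of the 7 members, while 925 genes (6.64%) had an unadjusted p under 0.05, 1 of them a member, Ugp2. DESeq2 called 40 genes and gave 705 at an unadjusted p under 0.05, with 1 member among the latter. The Ugp2 difference was 0.54 ± 0.175 on the log2 scale (edgeR adjusted p = 0.56), and that of Gys1 was -0.29 ± 0.204 (edgeR adjusted p = 0.81). With 2 libraries a group, the standard errors of this difference for the 7 members ran from 0.175 to 0.426, which limits the size of difference that could be detected.

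Levels were next compared between genes as transcripts per 1000000 (TPM), from counts and merged exon lengths, which include exons of minor transcripts. In WT normoxia the order was Pygb (80.4 ± 6.1, SD, n = 2), Pgm1 (69.8 ± 11.4), Ugp2 (44 ± 0.194), Gys1 (35.7 ± 0.561), Gbe1 (35.1 ± 4.81), Pgm2 (25.7 ± 0.261) and Ppp1r3b (1.93 ± 0.335). Pygb and Pgm1 overlapped there, as did Gys1 and Gbe1. In WT hypoxia the order became Pgm1 (318 ± 40.3), Gys1 (189 ± 16.5), Gbe1 (82.9 ± 6.27), Pygb (59.5 ± 12), Ugp2 (35.3 ± 4.15), Pgm2 (23.1 ± 4.19) and Ppp1r3b (15.7 ± 3.38), with no overlap between neighbours. Pygb thus had the highest mean in normoxia, with Pgm1 above it in 1 of the 2 libraries, and stood below Pgm1, Gys1 and Gbe1 in hypoxia.

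In FIH-KO normoxia Pygb led (127 ± 10.2 TPM), followed by Gbe1 (85.2 ± 20.3) and Pgm1 (78.6 ± 14.6), which overlapped, then Gys1 (48 ± 0.352), Ugp2 (42.2 ± 4.31), Pgm2 (24.4 ± 0.321) and Ppp1r3b (2.36 ± 0.733). In FIH-KO hypoxia Pgm1 led (410 ± 98.9 TPM), Gbe1 (202 ± 69.4) and Gys1 (198 ± 36.7) overlapped, and Pygb (95.9 ± 5.52) and Ugp2 (46.8 ± 1.34) came next. Ppp1r3b (19.7 ± 5.91) and Pgm2 (17.9 ± 0.491) overlapped at the end of that order. Gbe1 stood level with the synthase in FIH-KO hypoxia and below it in WT hypoxia.

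The RNA of the synthase was set against that of the phosphorylase, which measures neither glycogen nor enzyme activity. Gys1 over Pygb, in TPM, was 0.445 ± 0.0408 (SD, n = 2) in WT normoxia and 3.27 ± 0.94 in WT hypoxia. In FIH-KO cells it was 0.38 ± 0.0278 and 2.08 ± 0.503. The ratio was below 1 in all 4 normoxia libraries and above 1 in all 4 hypoxia libraries, and the genotypes did not overlap at either oxygen level. Gys1 over Gbe1 was 1.02 ± 0.124 in WT normoxia, 0.579 ± 0.134 in FIH-KO normoxia, 2.27 ± 0.0275 in WT hypoxia and 1.01 ± 0.164 in FIH-KO hypoxia. Synthase RNA thus exceeded branching enzyme RNA most in WT hypoxia. These ratios are descriptions with no test.

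Within each enzyme family 1 gene held most of the RNA. Gys1 made up all of the synthase TPM, as Gys2, the liver synthase, had no read in any library. Pygb held 98% ± 0.698 (SD, n = 2) of phosphorylase TPM in WT normoxia, 98.8% ± 0.464 in FIH-KO normoxia, 91.3% ± 0.701 in WT hypoxia and 97.9% ± 0.111 in FIH-KO hypoxia, with Pygm, the muscle isoform, as the rest. Pgm1 held 67.4% ± 3.43 of the phosphoglucomutase TPM in WT normoxia and 90.8% ± 1.71 in WT hypoxia, and 70.7% ± 4.5 and 93.9% ± 1.83 in FIH-KO cells. Of the targeting subunits, Ppp1r3e held most in every group, 91.7% ± 1.38 in WT normoxia and 66.1% ± 6.45 in WT hypoxia. Ppp1r3b rose in that share from 7.49% ± 0.919 to 32.4% ± 5.16 in WT cells and from 9.42% ± 3.58 to 38.5% ± 11.1 in FIH-KO cells.

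A wider list of 24 other glycogen genes, 17 of them tested, covers the primer, the debranching and lysosomal enzymes, the kinases and phosphatases, and the laforin system. In WT hypoxia 5 were higher (Stbd1, Epm2a, Pygm, Gsk3b and Phkb) and 3 lower (Gyg1, Ppp1ca and Ppp1cc), beside 16.9% higher and 15.5% lower over all tested genes. In FIH-KO hypoxia 3 were higher (Stbd1, Epm2a and Gsk3b) and 2 lower (Gyg1 and Ppp1ca), beside 8.84% and 8%. In FIH-KO against WT, 4 were higher in normoxia (Phka2, Phka1, Gaa and Gsk3b) and 2 lower (Ppp1ca and Ppp1cc), beside 15.2% and 13%, and in hypoxia 3 were higher (Phka2, Phka1 and Gaa) and 3 lower (Stbd1, Pygm and Phkg2), beside 14.1% and 13.9%. Epm2a passed the filter on low counts only through its hypoxia libraries, so its 2 calls should be left aside when the counts are set against these shares, while every other gene called in this list had at least 14 reads in each library. Phkb, Ppp1ca, Ppp1cc and Phkg2 were named after their values were seen, and each of their calls was lost under at least 1 alternative. The median log2 fold change of the 17 was 0.14 in WT hypoxia and 0.02 in FIH-KO hypoxia, far under that of the members. Gys2, Ppp1r3a and Ppp1r3d had no read, and Ppp1r3g and Phkg1 at most 1 read in any library.

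Stbd1, which binds glycogen and tethers it to membranes, was at 1.8 and 2.25 CPM in WT normoxia, 1.13 and 0.784 in FIH-KO normoxia, 47.7 and 41 in WT hypoxia, and 16.4 and 6.31 in FIH-KO hypoxia. The WT hypoxia libraries stood above all others, and the FIH-KO libraries were below WT at each oxygen level. It rose 21.8-fold in WT hypoxia (log2 fold change 4.45 ± 0.382, edgeR adjusted p = 1.4e-05) and 11.9-fold in FIH-KO hypoxia (3.57 ± 0.435, edgeR adjusted p = 0.00027; 2.74 to 4.09 over the alternatives). In hypoxia FIH-KO cells were lower (-1.96 ± 0.317, edgeR adjusted p = 0.00096), and this value ran from -2.77 to -1.43 over the alternatives, the ends being the fits without FIH-KO hypoxia replicate 1 and replicate 2. The difference of the oxygen responses was not called (-0.88 ± 0.632, edgeR adjusted p = 0.81).

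Epm2a encodes laforin, a phosphatase that acts on glycogen itself. It had 3 and 1 reads in WT normoxia, 0 and 1 in FIH-KO normoxia, 105 and 54 in WT hypoxia, and 66 and 51 in FIH-KO hypoxia. Almost all of its reads thus came from hypoxia libraries. The ratio of pooled counts scaled to depth, hypoxia over normoxia, was 39.7 in WT cells (95% exact interval for counting error 15.2 to 147) and 129 in FIH-KO cells (22.7 to 5150), where the normoxia libraries held 1 read. The size of the rise was not stable. Its fitted log2 fold change ran from 4.55 to 6.13 in WT cells and from 5.89 to 8.93 in FIH-KO cells over the alternatives.

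Pygm, the muscle phosphorylase, was at 1.54 and 1.01 CPM in WT normoxia, 4.15 and 4.64 in WT hypoxia, 0.953 and 1.46 in FIH-KO normoxia, and 1.69 and 1.63 in FIH-KO hypoxia. The 2 WT hypoxia libraries were above the other 6. It was higher in WT hypoxia (log2 fold change 1.78 ± 0.344, edgeR adjusted p = 0.0023) and lower in FIH-KO than WT cells in hypoxia (-1.40 ± 0.334, edgeR adjusted p = 0.0086), the latter not called without WT hypoxia replicate 2 (edgeR adjusted p = 0.052). The difference of the oxygen responses was -1.33 ± 0.511 (edgeR adjusted p = 0.65). Gyg1, the primer glycogenin, fell in hypoxia in both genotypes, in WT cells from 24.4 and 24.4 to 16.1 and 16.2 CPM (edgeR adjusted p = 0.011) and in FIH-KO cells from 22.7 and 22.4 to 11.4 and 13.9 CPM (edgeR adjusted p = 0.0038). Its fall in WT cells was not called without WT normoxia replicate 1, WT normoxia replicate 2 or WT hypoxia replicate 2 (edgeR adjusted p 0.051 to 0.06).

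Of the subunits of phosphorylase kinase, the enzyme that switches phosphorylase on, the regulatory Phka1 and Phka2 were higher in FIH-KO cells at both oxygen levels. Regulatory Phkb was not called by genotype (log2 fold change 0.07 ± 0.149, edgeR adjusted p = 0.75, and -0.06 ± 0.147, edgeR adjusted p = 0.78), and catalytic Phkg2 was lower in FIH-KO hypoxia (-0.51 ± 0.159, edgeR adjusted p = 0.032). Phka2 was at 14.5 and 15.2 CPM in WT normoxia and 28.5 and 26.4 in FIH-KO normoxia (log2 fold change 0.89 ± 0.156, edgeR adjusted p = 0.0015), and at 13.5 and 14.5 in WT hypoxia and 21.1 and 25.8 in FIH-KO hypoxia (0.75 ± 0.158, edgeR adjusted p = 0.0044). Phka1 was likewise above WT in FIH-KO normoxia (0.56 ± 0.127, edgeR adjusted p = 0.0063) and FIH-KO hypoxia (0.46 ± 0.128, edgeR adjusted p = 0.02), and so was Gaa, the lysosomal glucosidase (0.52 ± 0.125, edgeR adjusted p = 0.0091, and 0.50 ± 0.125, edgeR adjusted p = 0.012). Phka2, Phka1 and Gaa thus stood on the same side as Pygb. The Phka1 and Gaa calls were each lost without some single library, Phka1 with adjusted p up to 0.096 and Gaa up to 0.16. Gsk3b, a kinase that inhibits glycogen synthase, rose in hypoxia in WT cells (0.69 ± 0.104, edgeR adjusted p = 0.00053) and in FIH-KO cells (0.60 ± 0.103, edgeR adjusted p = 0.0023); its rise in FIH-KO over WT in normoxia (0.37 ± 0.104, edgeR adjusted p = 0.019) was lost without any 1 normoxia library (edgeR adjusted p 0.07 to 0.23).

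**Figure D3:**
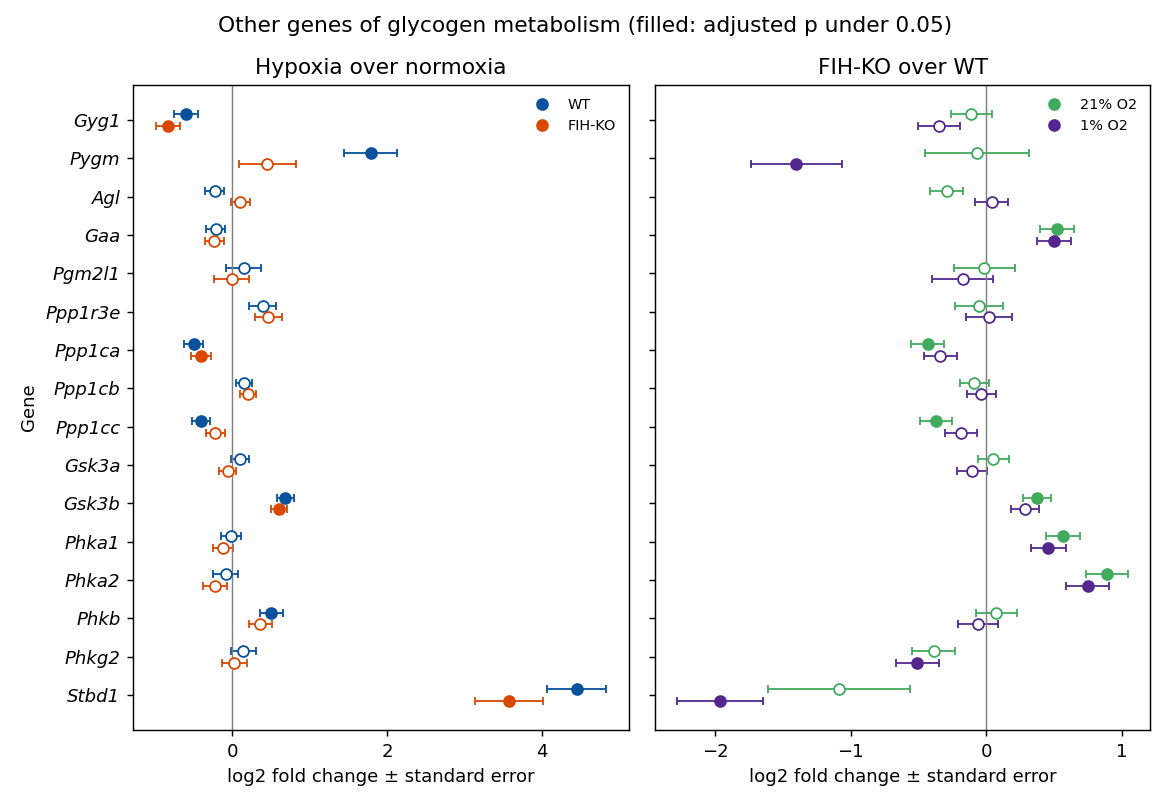
Log2 fold change and standard error from edgeR for the other tested genes of glycogen metabolism, without Epm2a, whose fitted fold change rests on at most 3 reads in any normoxia library; layout and filled points as in the plot of member changes. Of the genes shown, Stbd1 rose most in hypoxia, and Phka1, Phka2 and Gaa were higher in FIH-KO cells at both oxygen levels.

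Glucose 6-phosphate, from which glycogen is built, is supplied by glucose transporters and hexokinases and can be lost through glucose 6-phosphatase. Of 11 such genes 7 were tested, and 6 were higher in WT hypoxia and 5 in FIH-KO hypoxia, with none lower, beside 16.9% and 8.84% higher over all tested genes. Slc2a1, Hk2, Hk1, Gpi1 and Slc37a4 were called in both genotypes and G6pc3 in WT cells. Slc2a1, a glucose transporter, rose 5.94-fold in WT and 6.65-fold in FIH-KO cells (edgeR adjusted p = 1.7e-05 in each), and Hk2 3.68-fold and 4.6-fold (edgeR adjusted p = 2.8e-05 and 1.7e-05). These folds were of the size seen for Gys1 and Pgm1. In FIH-KO against WT, Hk1 was higher and Slc2a3 lower in normoxia, and Hk1 and Gpi1 were higher and Slc2a3 and Slc37a4 lower in hypoxia, beside 15.2% higher and 13% lower over all tested genes in normoxia and 14.1% and 13.9% in hypoxia. Of these, the Hk1 call at each oxygen level, the Slc37a4 call and the Slc2a3 call in normoxia were lost without at least 1 library. G6pc1 and G6pc2 had no read, Hk3 at most 2 reads in any library, and Hkdc1 was below the filter on low counts.

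Other measures moved with these results. Replicate 1 was above replicate 2 in all 4 groups for Gys1, Gbe1, Pgm1 and Ppp1r3b, by 1.03 to 1.29 times in WT normoxia, 1.04 to 1.61 in FIH-KO normoxia, 1.17 to 1.43 in WT hypoxia and 1.36 to 1.71 in FIH-KO hypoxia. The same ratio for the 9 hypoxia reference genes was 0.952 to 1.68, 0.912 to 1.63, 1.09 to 1.33 and 0.969 to 1.85 in these groups. In FIH-KO over WT, 1 of these 9 was higher (Vegfa) and 1 lower (Ldha) in normoxia, with a median log2 fold change of -0.20. In hypoxia 3 were higher (Egln3, Pgk1 and Pdk1) and none lower, with a median of 0.32. All tested genes gave 15.2% higher and 13% lower in normoxia, and 14.1% and 13.9% in hypoxia. The Ldha, Pgk1 and Pdk1 calls were each lost without at least 1 library. With genotype, 3 of the 4 mesenchymal markers were higher in FIH-KO normoxia than in WT (Vim, Fn1 and S100a4) and 2 in hypoxia (Vim and Fn1). These and the marker calls by genotype below stand beside 15.2% higher and 13% lower over all tested genes in normoxia, and 14.1% and 13.9% in hypoxia. The sum of the mesenchymal list was 4440 and 5210 CPM in WT normoxia, 8320 and 9110 in FIH-KO normoxia, 6040 and 5610 in WT hypoxia, and 11100 and 9240 in FIH-KO hypoxia. All 4 FIH-KO libraries lay above all 4 WT libraries in that sum, as they did for Pygb, while Gbe1 separated by genotype only within an oxygen level. With oxygen, Fn1 was higher and S100a4 lower in hypoxia in both genotypes. Over all tested genes 16.9% were higher and 15.5% lower in WT hypoxia, and 8.84% and 8% in FIH-KO hypoxia. Of the 6 epithelial markers 3 were tested, and 1, Krt8, was higher in FIH-KO cells at each oxygen level (edgeR adjusted p = 0.00066 and 0.00083). That list summed to 326 and 352 CPM in WT normoxia, 538 and 436 in FIH-KO normoxia, 283 and 226 in WT hypoxia, and 447 and 334 in FIH-KO hypoxia. Krt19 was higher in hypoxia in both genotypes (WT: edgeR adjusted p = 0.00056; FIH-KO: edgeR adjusted p = 4e-04). Krt18 was lower in WT hypoxia (edgeR adjusted p = 0.023).

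The leukocyte list, with Cd68 the most abundant over all libraries, summed to 2.96 and 3.73 CPM in WT normoxia, 10.1 and 10.3 in FIH-KO normoxia, 5.49 and 6.55 in WT hypoxia, and 9.06 and 8.14 in FIH-KO hypoxia, with Cd3e at 0. Lyz2 was at 0.257 and 0.533 CPM in WT normoxia, 4.88 and 5.99 in FIH-KO normoxia, 0.336 and 0.137 in WT hypoxia, and 1.87 and 4.95 in FIH-KO hypoxia. The 3 endothelial markers summed to 0.321 and 0.296 CPM in WT normoxia, 0.179 and 0.224 in FIH-KO normoxia, 2.41 and 1.77 in WT hypoxia, and 0.437 and 0.325 in FIH-KO hypoxia. Cdh5, the most abundant of them, had 2 and 1, 0 and 1, 35 and 18, and 5 and 3 reads in these groups. Its 2 WT hypoxia libraries were thus the highest, as for Stbd1 and Pygm. Lyz2 and Cdh5 passed the filter on low counts only through the groups where they were high, so their levels are given here without a test. Of the 5 fibroblast markers 3 were tested for FIH-KO over WT, where Pdgfra was lower in hypoxia (log2 fold change -0.87 ± 0.273, edgeR adjusted p = 0.032) and not called in normoxia (-0.61 ± 0.26, edgeR adjusted p = 0.1). Col1a1 (0.99 ± 0.518 in normoxia and 1.31 ± 0.616 in hypoxia, edgeR adjusted p = 0.18 and 0.13) and Dcn (1.19 ± 0.552 and 1.22 ± 0.652, edgeR adjusted p = 0.13 and 0.19) lay on the other side and were not called. Their levels were low, as Pdgfra alone took 14.8 of the 15.5 CPM of the fibroblast list in WT hypoxia replicate 1. In FIH-KO normoxia replicate 2 it took 17.4 of 24.5 CPM. That list summed to 28.9 and 29 CPM in WT normoxia, 21.3 and 24.5 in FIH-KO normoxia, 15.5 and 24.4 in WT hypoxia, and 9.12 and 17.6 in FIH-KO hypoxia. The part of any of these in the results was not tested, and the effect of the edit and that of growing up selected clones cannot be told apart.

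The surroundings of the members on their chromosomes were compared for FIH-KO over WT, in median log2 fold change. Ppp1r3c lies on chromosome 19, whose 476 tested genes had a median of -0.38 in normoxia and -0.45 in hypoxia, and the 3 tested genes on each side of it had a median of -1.03 and -1.34. All 6 neighbours were negative at both oxygen levels. Gbe1 lies on chromosome 16 (0.23 and 0.18), with 6 neighbours at 0.03 and 0.01, and Pygb on chromosome 2 (0.23 and 0.21), with 6 neighbours at 0.14 and 0.25. Ugp2 lies on chromosome 11 (-0.05 and -0.08), with 6 neighbours at -0.30 and -0.20. Gys1 lies on chromosome 7 (0.14 and 0.05), with 6 neighbours at 0.19 and 0.28. Of the other glycogen genes, Gaa (0.52 and 0.50) lies on chromosome 11 (-0.05 and -0.08), with 6 neighbours at 0.75 and 0.43. Gsk3b lies on chromosome 16, with neighbours at 0.12 and -0.03. Pygm and Ppp1ca lie on chromosome 19, with neighbours at -0.09 and -0.35 for Pygm and at 0.09 and -0.28 for Ppp1ca. Stbd1 lies on chromosome 5 (-0.10 and -0.12), with neighbours at -0.42 and -0.43, and Phka1 and Phka2 on chromosome X (0.07 and 0.14), with neighbours at -0.02 and 0.00 and at 0.13 and 0.06. The part of the chromosome in any of these values was not tested. Over all tested genes the median was -0.00 and -0.03.

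A few members share exonic bases with a gene on the opposite strand, and their reads may not be fully separable: the libraries were made with a stranded kit, but the strand setting of the counting is not given in the sources used here. Gys1 shares 420 bases with Ruvbl2, Pgm1 shares 615 with Itgb3bp, and Ugp2 shares 950 with Vps54. In WT hypoxia the log2 fold change of Ruvbl2 was 0.60 ± 0.181 (edgeR adjusted p = 0.025), that of Itgb3bp -0.36 ± 0.199 (edgeR adjusted p = 0.18) and that of Vps54 -0.21 ± 0.13 (edgeR adjusted p = 0.25). In FIH-KO hypoxia Ruvbl2 was at 0.497 ± 0.182 (edgeR adjusted p = 0.083) and Itgb3bp at -0.243 ± 0.2 (edgeR adjusted p = 0.45). FIH-KO over WT for Ruvbl2 was -0.343 ± 0.182 in normoxia and -0.44 ± 0.181 in hypoxia (edgeR adjusted p = 0.18 and 0.089). For Itgb3bp it was -0.165 ± 0.197 and -0.043 ± 0.202 (edgeR adjusted p = 0.57 and 0.9). Vps54 was at 0.15 ± 0.131 in FIH-KO hypoxia (edgeR adjusted p = 0.48), and in FIH-KO over WT at -0.44 ± 0.13 in normoxia (edgeR adjusted p = 0.025) and -0.08 ± 0.131 in hypoxia (edgeR adjusted p = 0.68). The part of these overlaps in the members' values was not tested.

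Because 4 members rose together in hypoxia, promoter windows of 300 bases (250 before to 50 after the gene start, RefSeq, GRCm38.p6) were searched on both strands for ACGTG and GCGTG, the core letters of the hypoxia response element. Windows were given for 8 of the 9 members, the exception being Ppp1r3b, and each matched once in GRCm39. The Gys1 and Gbe1 windows held no core, Pgm1 held 2, Pgm2 1, Pygl 2, Pygb 2 and Ppp1r3c 4, and Ugp2 had a window with 6 and another with 0. Among all 32851 windows given, 43.8% held at least 1 core and 20.6% at least 2. By member, cores were present in windows of members that rose, that fell and that had no reads, and absent from windows of other members that rose. Cores farther than 250 bases before the gene start were not searched, and the part of any core in the changes was not tested. A match is a description of letters and not of a bound site. The stretches below show what such a core looks like, 1 from each detected member with a stretch clear of annotated exons, with the core in capitals as read along the gene and GRCm39 coordinates. The stretches of the 2 Pgm1 cores, both ACGTG, from positions -208 and -181, overlap an annotated exon and are not shown, so the display holds no member called higher in hypoxia and says nothing of which members have cores. They lie at chr5:64250208-64250236 on the plus strand (Pgm2, core from position -62 relative to the gene start), chr2:150628541-150628569 on the plus strand (Pygb, -163), chr11:21321420-21321448 on the minus strand (Ugp2, -169) and chr19:36714092-36714120 on the minus strand (Ppp1r3c, -104). In Ppp1r3c the next base makes the palindrome CACGTG, which counts as 2 overlapping cores.
Pgm2: gcggggctgctgCACGTcctcttccctcc
Pygb: ccctcgagcgtcCACGTtctcttcccggc
Ugp2: aagcagagacagACGTGcttggcaccgtg
Ppp1r3c: gagggaccggttCACGTgatctggctttg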

How the data were processed

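Per the labels and the study's methods, the authors used bcl2fastq for demultiplexing, STAR for alignment to GRCm39 and HTSeq for counting. They deposited raw gene counts with no normalization, whose annotation release is not given in the sources used here. Counts of the 8 libraries entered 1 edgeR 4.0.16 quasi-likelihood fit in R 4.3.3, with a mean per group, filterByExpr, TMM scaling and Benjamini-Hochberg adjustment over all tested genes, after a test on simulated data. The common biological coefficient of variation was 11.7%. Totals of 14519731 to 18177016 counts set the depth. Alternatives were DESeq2 1.42.0, other scalings, other filters (any read; no library under 10 counts), fits restricted to a comparison's own 4 libraries, a replicate block, and each library left out. TPM used merged exons of GENCODE M39, which held 97.97% of the gene identifiers and all 9 members under the same symbol.

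Named were all members, Hif1an, at most 8 called genes per list by absolute fold change, genes with 0 to 3 counts in every library, and the 3 genes most like Gys1, Gbe1 and Ppp1r3c in pattern. Named beyond this rule, after their values were seen, were Acta1, Cd68, Col1a1, Dcn, Hkdc1, Ldha, Phkb, Phkg2, Ppp1ca, Ppp1cc and Ppp1r3e, and Ruvbl2, Itgb3bp and Vps54 as overlapping genes. Lists covered other glycogen genes, glucose 6-phosphate supply, the UDP-glucose and galactose branch, hypoxia reference genes and cell type markers. Of the planned lists, 1 gene is not reported here. Members and lists were chosen with earlier results of these data known.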

Additional observations from a re-analysis of the deposited data

Results flagged for a closer look

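The Ugp2 libraries were ordered oppositely by oxygen in the 2 genotypes, with a call in WT cells only. Both WT hypoxia libraries (33.6 and 37.8 CPM) lay below both WT normoxia libraries (45.9 and 45.8 CPM), and both FIH-KO hypoxia libraries (49 and 48.9 CPM) lay above both FIH-KO normoxia libraries (40.8 and 46 CPM). The difference of the oxygen responses was 0.536 ± 0.175 on the log2 scale (edgeR adjusted p = 0.56 over all tested genes; unadjusted 0.0096), so it did not pass the correction, and it ran from 0.512 to 0.686 over the alternatives, with adjusted p of 0.19 to 1. The fall in WT cells lost its call in 6 of 15 alternatives. Ugp2 shares 950 exonic bases with Vps54 on the opposite strand, which was at -0.206 ± 0.13 in WT hypoxia and 0.15 ± 0.131 in FIH-KO hypoxia (edgeR adjusted p = 0.25 and 0.48), and the part of this overlap was not tested.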

How the results depend on the processing

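Over 35 glycogen gene results and 518 values, 484 kept their direction and their side of the threshold, 10 lost a call, 11 gained one and 13 changed sign. The cause of these changes was not tested. With only the 4 libraries of a comparison, called genes numbered 5660 in place of 4509 for WT hypoxia, 1289 in place of 2345 for FIH-KO hypoxia, 4555 in place of 3933 for FIH-KO over WT in normoxia and 2897 in place of 3896 in hypoxia. The difference of the FIH-KO effects gave 40 genes with DESeq2, 143 with no filter beyond 1 read and 5 with the replicate block, in place of 0. Leaving out 1 library gave 2124 to 5270 genes for WT hypoxia, 1097 to 2604 for FIH-KO hypoxia, 1735 to 4672 for FIH-KO over WT in normoxia, 2170 to 3887 in hypoxia and 0 to 39 for the difference. Glycogen genes called then numbered 4 to 6, 4 to 5, 1 to 3, 2 to 4 and 0. A lone library was assumed to vary like the other groups.

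Every change of sign came from leaving out 1 library, in log2 fold changes that were never called. The difference of the FIH-KO effects ran from -0.296 to 0.42 for Gbe1, -0.215 to 0.531 for Ppp1r3b and -0.002 to 0.285 for Pygb. FIH-KO over WT in normoxia ran from -0.089 to 0.326 for Pgm1 and -0.122 to 0.555 for Ppp1r3b, and in hypoxia from -0.076 to 0.325 for Gys1.

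Replicate numbers were not stated to pair libraries, and deviations of same-numbered libraries correlated at -0.039 to 0.213. The replicate block gave 4593, 2479, 4080, 4039 and 5 called genes in the 5 comparisons and 6, 4, 3, 4 and 0 glycogen genes, adding Gys1 in normoxia (edgeR adjusted p = 0.026) and Pgm1 in hypoxia (0.015) for FIH-KO over WT. Other scalings moved the median of all genes by at most 0.028. Depth limits Ppp1r3c and Pygl, and 2 libraries a group limit the difference of effects.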

Other observations

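UDP-glucose also feeds pathways other than glycogen, and the galactose pathway produces it. Of 10 genes in this branch all were tested. In WT hypoxia 2 were higher (Ugcg and Uggt2) and 1 lower (Galk2), in FIH-KO hypoxia 1 was higher (Ugcg), in FIH-KO over WT 2 were higher (Galk2 and Galt) and 1 lower (Galm) in normoxia, and 1 was higher (Galk2) in hypoxia. Over all tested genes the shares higher and lower were 16.9% and 15.5%, 8.84% and 8%, 15.2% and 13%, and 14.1% and 13.9% in these comparisons. Galk2, a kinase of the galactose family, stood at 63.1 and 65 CPM in WT normoxia, 104 and 86.6 in FIH-KO normoxia, 40.2 and 45.9 in WT hypoxia, and 76.1 and 82.8 in FIH-KO hypoxia. The FIH-KO libraries were above the WT libraries at each oxygen level, as for Pygb (log2 fold change in hypoxia 0.88 ± 0.127, edgeR adjusted p = 0.00046). The Ugcg, Uggt2, Galt and Galm calls, and that of Galk2 in normoxia, were lost without at least 1 library, with edgeR adjusted p up to 0.44. The Uggt2 call (edgeR adjusted p = 0.05 as rounded) was lost in 8 of 15 alternatives, among them RLE scaling (edgeR adjusted p = 0.053), upper-quartile scaling (0.06) and the replicate block (0.051). The Galt and Galm calls were also lost with DESeq2 (adjusted p = 0.07 and 0.057), and that of Ugcg in FIH-KO hypoxia with only the 4 libraries of the comparison (edgeR adjusted p = 0.054).

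By the root mean square difference of centred log2 CPM over the 8 libraries, among 10575 genes, the pattern most like Gys1 was that of Pgm1 (0.187), followed by Hilpda (0.199) and Egln1 (0.2). For Gbe1 the nearest were Sat1 (0.215), Tmem229b (0.245) and Scn8a (0.27). Sat1 averaged 42.3 CPM in WT normoxia, 80.1 in FIH-KO normoxia, 99.6 in WT hypoxia and 188 in FIH-KO hypoxia, an order close to that of Gbe1. Ppp1r3c had too few reads for this measure.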
